A study of Mus musculus with 6 samples.

Results

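The genes described here encode the protein subunits of the cytosolic ribosome, together with the processed pseudogenes that carry their names. Members were the genes of the deposited table whose symbol begins with Rpl or Rps and a digit, with Rplp0, Rplp1, Rplp2 and Rpsa, and without the Rps6k kinases. This rule found 236 of 19739 genes: 51 large subunit genes, 37 small subunit genes, 146 pseudogenes with "-ps" in the symbol, and 2 genes, Rps19bp1 and Rpl7l1, that match the pattern but encode no ribosomal subunit. The 37 include Rps23rg1 by its symbol alone. It had no entry in GENCODE M21, and whether it encodes a subunit was not checked. Of the 236, 211 passed the filter on low values, which was a log2 value of at least 3.32 in at least 3 of the 6 libraries: all 51 and all 37 subunit genes, 121 pseudogenes and the 2 others. The 25 pseudogenes that did not pass had means between 1.14 and 3.18 on the log2 scale. A further 10 pseudogenes of Rpsa and Rplp0 lie outside the rule and are not described.

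Primary luminal cells of the mouse mammary gland, the epithelium that faces the duct's lumen, were treated with ephrin-A3 protein (EFNA3), a ligand of Eph receptors. The cells were wild type, were isolated by flow cytometry, and were grown in DMEM/F12 medium with serum, EGF, FGF2, heparin and the ROCK inhibitor Y-27632. All 6 cultures were deprived of serum for 12 hours; 3 then spent 24 hours in medium lacking serum with no EFNA3 (Control), and 3 in such medium with EFNA3 at 1 µg/ml. The labels give no animal, donor or age for a library, so the spread between replicates may be technical. RNA was sequenced as stranded mRNA libraries; the deposited table holds log2 values without counts, and the depth of each library is therefore unknown.

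A ribosome holds a single copy of nearly every one of its proteins, and growing cells make these subunits in matched amounts. Their mRNAs begin with a C followed by a run of pyrimidines (the 5′ terminal oligopyrimidine, or TOP, motif), through which nutrient and growth factor signals acting on mTOR adjust their translation. Because the mRNAs are short and abundant, they have been copied back into the genome many times in mammals; these processed pseudogenes lack introns and often still resemble the mRNA of the parent closely.

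Near-identity between a parent and its copies bears on every value below, so the coding sequences of a few pairs are shown first. They were read from GENCODE M21 transcripts (GRCm38), 5′ to 3′ on the sense strand, as the stretch of 60 bases with the most differences, and capitals mark bases that differ between the members of a pair. The Rpl3 coding sequence (10 exons, chromosome 15) and the single-exon copy Rpl3-ps1 (chromosome X) differed at 2 of 1209 aligned bases, of which bases 27 to 86 hold 1:
Rpl3: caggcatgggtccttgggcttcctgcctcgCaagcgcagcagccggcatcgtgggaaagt
Rpl3-ps1: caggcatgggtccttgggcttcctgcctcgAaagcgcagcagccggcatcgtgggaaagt
Rps26 (chromosome 10) and Rps26-ps1 (chromosome 8), the tested pseudogene with the smallest unadjusted p among those with a lower mean, differed at 2 of 348 bases, with 1 of them in bases 1 to 60:
Rps26: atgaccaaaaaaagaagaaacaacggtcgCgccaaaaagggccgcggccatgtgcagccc
Rps26-ps1: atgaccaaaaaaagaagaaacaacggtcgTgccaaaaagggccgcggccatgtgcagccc
Rpl9 (chromosome 5) and Rpl9-ps7 (chromosome 2), the member with the smallest unadjusted p, differed at 3 of 579 bases, with 1 of them in bases 21 to 80:
Rpl9: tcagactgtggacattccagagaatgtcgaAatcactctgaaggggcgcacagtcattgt
Rpl9-ps7: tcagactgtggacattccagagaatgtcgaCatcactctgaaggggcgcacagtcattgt
Rpl31 (chromosome 1) and Rpl31-ps11 (chromosome 3), the tested member with the largest difference, had 4 mismatches and 1 gap position over 378 bases, with 2 mismatches in bases 125 to 184:
Rpl31: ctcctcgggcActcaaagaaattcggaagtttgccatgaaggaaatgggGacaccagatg
Rpl31-ps11: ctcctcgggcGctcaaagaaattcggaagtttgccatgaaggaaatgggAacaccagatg
Rps6 (5 exons, chromosome 4) and Rps6-ps4 (chromosome 2) were identical over all 750 coding bases. The Rps6 transcript has 878 nt, and its bases outside the coding sequence were not compared. In the genome the coding sequence of Rps6 is also broken by introns. In bases 109 to 168, shown with the 2 bases joined at an exon junction of Rps6 in capitals, the copy carries the same run unbroken in its single exon:
Rps6 and Rps6-ps4: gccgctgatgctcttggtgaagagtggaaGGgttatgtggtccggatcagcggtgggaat

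All 88 subunit genes had a higher mean with EFNA3 than in control, and none passed the test over all genes. The 51 large subunit genes were higher by 0.34 on average (SD over genes 0.17, range 0.06 to 0.63, log2), and the 37 small subunit genes by 0.33 (SD 0.17, range 0.02 to 0.77). The 121 tested pseudogenes were higher by 0.33 on average with a wider spread (SD 0.37, range -0.79 to 1.46); 105 had a higher and 16 a lower group mean. Of all 16394 tested genes, 50.8% had a higher mean with EFNA3, and their median difference was 0.00, against medians of 0.32, 0.31 and 0.27 for large subunit, small subunit and pseudogene members.

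By limma with Benjamini-Hochberg adjustment over all tested genes, 0 genes of the table and 0 members passed 0.05 (background 0.0%), and the smallest adjusted p was 0.55. At an unadjusted p under 0.05 with a higher mean stood 15 large subunit genes (29.4%), 16 small subunit genes (43.2%) and 22 pseudogenes (18.2%). The background for this was 3.87% over all tested genes and 9.09% over other genes of at most 1500 nt. With a lower mean stood 1 pseudogene, where the background over all tested genes was 2.86%. All 3 EFNA3 libraries lay above all 3 controls for 9 large subunit genes (17.6%), 9 small subunit genes (24.3%) and 19 pseudogenes (15.7%). The background for this was 8.53% over all tested genes and 14.8% over other genes of at most 1500 nt, so the pseudogene share was near that of short genes. The reverse order was seen for 2 pseudogenes and no subunit gene, against 7.45% of all tested genes. With 3 libraries a group, the smallest two-sided p of an exact permutation test is 0.1. The counts of large subunit, small subunit and pseudogene members under an unadjusted 0.05 were 4, 3 and 14 without control replicate 3, 33, 23 and 29 without EFNA3 replicate 2, and 11, 14 and 10 without EFNA3 replicate 1, against 15, 16 and 23; without control replicate 2 the pseudogene count was 14. Over all tested genes the same count was 392 higher and 348 lower without control replicate 3, 935 and 866 without EFNA3 replicate 2, 329 and 183 without control replicate 2, and 395 and 361 when EFNA3 replicate 1 was left out, against 635 and 469 with all libraries.

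Single libraries carried much of the class means. Measured from each gene's own mean over the 6 libraries, the large subunit genes averaged -0.04, -0.08 and -0.40 in control replicates 1, 2 and 3 and 0.47, -0.11 and 0.15 in EFNA3 replicates 1, 2 and 3. The small subunit genes averaged -0.08, -0.13 and -0.28 in the controls and 0.49, -0.07 and 0.08 with EFNA3. EFNA3 replicate 1 was thus the highest library and control replicate 3 the lowest for both subunits, and EFNA3 replicate 2 lay below control replicates 1 and 2 for the large subunit. Pseudogenes averaged -0.11, -0.22 and -0.16 in the controls and 0.45, -0.01 and 0.05 with EFNA3, so that every EFNA3 library was above every control by these means. This order held for the 81 pseudogenes with a mean over 6 libraries under 8, but not for the 40 with a mean of at least 8. Those 40 averaged -0.13, -0.22 and 0.04 in the controls and 0.39, 0.04 and -0.12 with EFNA3. Only 1 EFNA3 library, replicate 1, was above all controls for them. Without EFNA3 replicate 1 the class means were 0.19, 0.17 and 0.19 for large subunit, small subunit and pseudogene members, and without control replicate 3 they were 0.23, 0.27 and 0.33.

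**Figure D1:**
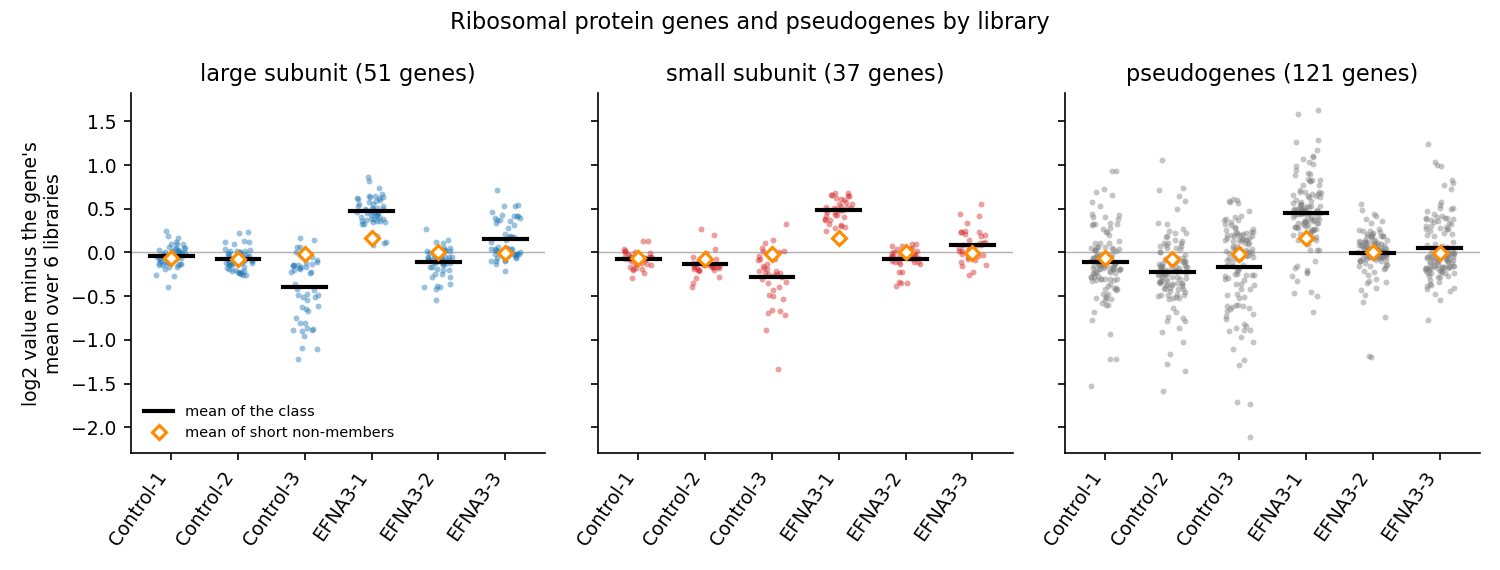
Each point is 1 tested gene in 1 library, as its log2 value minus that gene's mean over the 6 libraries; black bars are class means and open diamonds the mean of 3928 other genes with a transcript of at most 1500 nt. The class means were highest in EFNA3 replicate 1 (0.47, 0.49 and 0.45), and the subunit genes spread most in control replicate 3.

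Transcript length moved with the same library. Among tested genes outside the members, the eighth with the shortest transcripts (up to 949 nt) had a median deviation of 0.29 in EFNA3 replicate 1 and the eighth with the longest (from 5312 nt) one of -0.32; in the other 5 libraries these medians lay between -0.11 and 0.12. Members are short, with median transcripts of 729 nt for the large subunit, 671 nt for the small subunit and 480 nt for pseudogenes. The 3928 other genes of at most 1500 nt were higher with EFNA3 by a mean of 0.10 (SD over genes 0.34), 71.5% had a higher group mean, and 14.8% had all EFNA3 libraries above all controls. With length and GC share taken out of each library the class means were 0.21, 0.20 and 0.18, and with EFNA3 replicate 1 left out as well 0.13, 0.11 and 0.12; this last setting was chosen after seeing the data. The 201 other tested genes with "-ps" in the symbol were higher by a mean of 0.04 (SD 0.31).

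Markers of the labelled cell type and of other types were read, without a test of the label. All 8 luminal markers were detected, with Epcam at 14.57 and Krt8 at 13.70 in the control mean. The basal keratins Krt14 (16.26) and Krt5 (14.91) were detected as well, as were Oxtr (13.44) and Acta2 (7.77) of the same list, while its contractile genes Myh11 and Cnn1 did not pass the filter. Krt14 and Krt5 stood above all 8 luminal markers in the control mean, in values not adjusted for length. The summed level of the luminal markers was 16.27 to 16.37 in control and 16.35 to 16.60 with EFNA3, and that of the 6 basal markers 16.84 to 16.94 and 16.94 to 17.01. Sums of immune markers (2 of 5 in the table) were 4.54 to 5.01 and 5.22 to 6.32, those of fibroblast markers (5 of 6) 10.75 to 10.79 and 10.63 to 10.78, of endothelial markers 8.27 to 8.48 and 8.25 to 8.40, and of adipocyte markers 7.98 to 8.39 and 7.66 to 8.21. The immune sum rests on Csf1r and on Lyz2, which did not pass the filter. Lyz2 stood at 5.87, 1.44 and 3.16 in EFNA3 replicates 1, 2 and 3. Of the endothelial list only Pecam1 passed, while Cdh5, Kdr and Tek did not. The part of these cell types in the ribosomal values was not tested. In bulk RNA, a change in the number of cells of a type and a change in RNA per cell cannot be told apart.

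Among large subunit genes the acidic stalk proteins, which recruit the elongation factors, held the smallest p values. Rplp2 stood at 11.71, 11.60 and 11.17 in control replicates 1, 2 and 3 and at 12.43, 12.06 and 11.81 in EFNA3 replicates 1, 2 and 3. Its groups did not overlap, and the difference was 0.61 (SE 0.17, unadjusted p = 0.0070, limma). Rplp1 followed with 13.06, 12.98 and 12.97 against 13.69, 13.30 and 13.18, a difference of 0.39 (SE 0.12). Rplp0, the scaffold of the stalk, overlapped between groups: its controls were 14.47, 14.43 and 14.60 and its EFNA3 values 14.72, 14.55 and 14.45, with a difference of 0.07 (SE 0.09). The differences of the 3 stalk proteins thus ran from 0.07 to 0.61; whether they differ from each other was not tested.

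The next smallest p values in the large subunit belonged to Rpl18, Rpl37a, Rpl39 and Rpl13a. Rpl18 stood at 11.09, 11.06 and 10.72 in control and at 11.72, 11.18 and 11.37 with EFNA3, a difference of 0.47 (SE 0.15) without overlap. Rpl39, a small protein of the peptide exit tunnel, had the largest difference of the subunit at 0.63 (SE 0.23), but its EFNA3 replicate 2 (11.47) lay below control replicate 1 (11.53), and the difference was 0.39 without control replicate 3. Rpl13a differed by 0.33 (SE 0.13) without overlap and Rpl37a by 0.52 (SE 0.17) with overlap. The differences closest to 0 were those of Rpl4, which lines the exit tunnel, at 0.06 (SE 0.08) and Rpl10, which sits near the tRNA sites, at 0.07 (SE 0.11). Rpl4 also had the highest deposited log2 value of the large subunit, not adjusted for length, with 15.14, 15.04 and 15.10 in control and 15.24, 15.14 and 15.10 with EFNA3.

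In the small subunit, 9 genes had no overlap between groups, among them Rps23rg1 with a control mean of 4.28. Rps20, a protein of the subunit's head, stood at 12.39, 12.36 and 12.19 in control and at 13.08, 12.58 and 12.58 with EFNA3; its groups did not overlap and the difference was 0.44 (SE 0.13, unadjusted p = 0.0095). Rps16 differed by 0.54 (SE 0.17) and Rps19, the gene most often affected in Diamond-Blackfan anaemia, by 0.42 (SE 0.15), each without overlap. Rps28 (0.57, SE 0.20) and Rps26, which contacts mRNA at the exit channel (0.41, SE 0.16), had 1 EFNA3 library within the control range. Rps7 had the largest difference of either subunit at 0.77 (SE 0.35), and 0.30 without control replicate 3: its controls were 10.65, 10.56 and 9.18, and its EFNA3 values 11.13, 10.52 and 11.07.

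Differences closest to 0 in the small subunit were those of Rps3a2 and Rps6. Rps6, the subunit phosphorylated by S6 kinases downstream of mTOR, stood at 8.21, 8.27 and 8.54 in control and at 8.83, 8.42 and 8.14 with EFNA3, with a difference of 0.13 (SE 0.18). Rpsa, also known as the laminin receptor, differed by 0.22 (SE 0.11) and overlapped between groups. Rps3a2 had the smallest difference, 0.02 (SE 0.16). Its symbol lacks "-ps", but GENCODE M21 annotates it as a pseudogene, as it does Rpl32l, Rpl6l, Rps3a3, Rps4l and Rpl37rt; these 6 together were higher by a mean of 0.17 (SD over genes 0.10), while the 81 subunit genes annotated as coding were higher by 0.35 (SD 0.16).

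**Figure D2:**
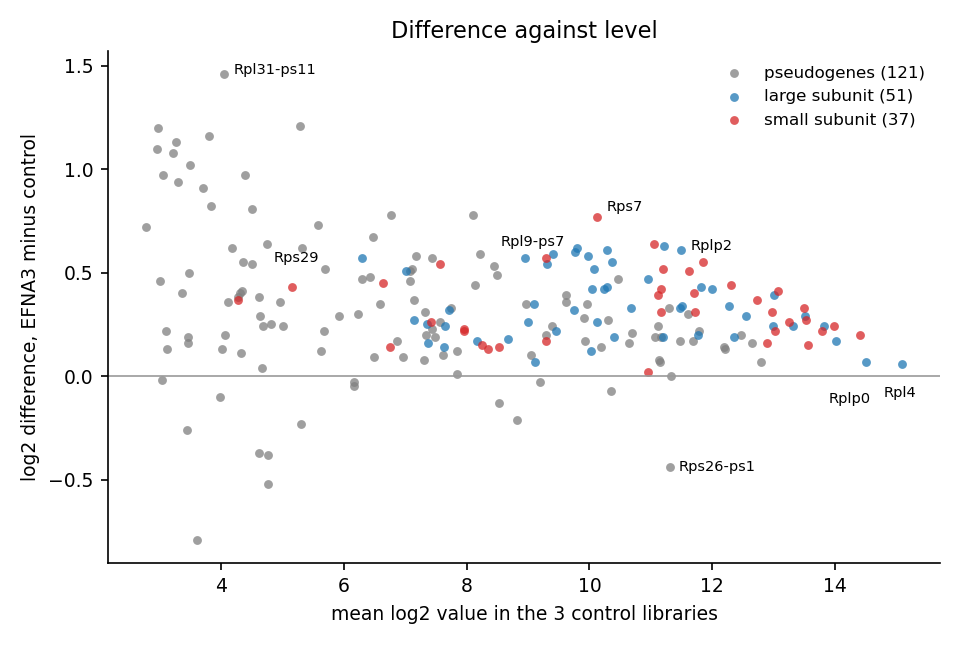
Each point is 1 tested member, with its mean log2 value in the 3 controls on the x axis and its EFNA3 minus control log2 difference on the y axis. All subunit genes lie above 0, pseudogenes of low level spread from -0.79 to 1.46, and Rps26-ps1 is the pseudogene of high level that lies farthest below 0.

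Paralogs are close relatives of a subunit gene, some of which can take its place in the ribosome. Rps27l, a p53-induced relative of Rps27, stood at 11.12, 11.13 and 11.10 in control and at 11.82, 11.35 and 11.36 with EFNA3; the groups did not overlap and the difference was 0.39 (SE 0.12, unadjusted p = 0.010). Rpl22l1 differed by 0.54 (SE 0.23) and Rpl36al by 0.57 (SE 0.44), both with overlap and both with their lowest value in control replicate 3 (8.94 and 5.36); without that library they differed by 0.35 and 0.10. Rpl6l, Rpl32l and Rps4l, the annotated pseudogenes among these symbols, differed by 0.19 (SE 0.13), 0.16 (SE 0.13) and 0.14 (SE 0.13). Of the 2 genes kept apart from the classes, Rpl7l1 differed by 0.14 (SE 0.08) and Rps19bp1 by 0.12 (SE 0.12).

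Levels were compared per length, as the mean log2 value in the controls minus log2 of the transcript length in kb. On this scale the median was 10.79 for large subunit genes (quartiles 9.47 and 11.98), 12.19 for small subunit genes (9.19 and 12.94) and 7.51 for the 110 tested pseudogenes with a length (5.44 and 9.83). The highest were Rpl41 (14.70), Rps9 (14.40) and, among pseudogenes, Rpl14-ps1 (13.09). The lowest subunit genes were Rpl36al (7.23) and Rps29 (6.51), with Rps23rg1 left out for want of a length. Subunit genes thus ran from 6.51 to 14.70 per kb in a single condition. Rps29, a zinc-binding protein of the small subunit, was read at 5.13, 4.97 and 5.37 in control, and a predicted gene whose coding sequence is 100% identical, Gm14303, was read at 10.90, 10.87 and 10.70 in the same libraries.

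The 121 tested pseudogenes belonged to 47 parents, with at most 6 for 1 parent (Rpl17 and Rpl31). A coding sequence of the parent could be aligned to 108 of them; the median identity was 99.0% and the lowest 87.5% (Rpl36a-ps3, which matched the paralog Rpl36al at 99.69%), 105 were at 95% or more, and 13 were at 100%. GENCODE M21 annotates 4 of the 121 as protein coding, among them Rpl9-ps6 and Rps12-ps3, and 11 had no entry there. Because reads of such copies can be assigned to either locus, the value of each parent and each pseudogene is uncertain.

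Most pseudogenes were far below their parent, but 22 were above it by the deposited log2 value. The median difference in mean log2 value, pseudogene minus parent, was -3.89. Per length, for the 110 pairs with both lengths, 25 pseudogenes were above their parent and the median was -3.23. The 22 above their parent belonged to 18 parents. The median identity was 99.8% for the 20 of them that could be aligned, against 98.8% for the 88 others that could be. Of the 13 at 100% identity, 9 were above. The identical Rps6-ps4 was read at 12.07, 12.01 and 12.49 in control and at 12.62, 12.28 and 12.08 with EFNA3, so its mean was 3.86 above that of Rps6, or 4.09 per length. Per length, Rps10-ps2 was 3.25 above Rps10, Rps16-ps2 5.26 above Rps16, Rpl28-ps1 4.38 above Rpl28 and Rpl36a-ps2 4.56 above Rpl36a. These values depend on the transcript taken for each gene. Rps16 was taken at 1109 nt and Rps16-ps2 at 441 nt, and the gap between them was 3.93 without the length step.

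**Figure D3:**
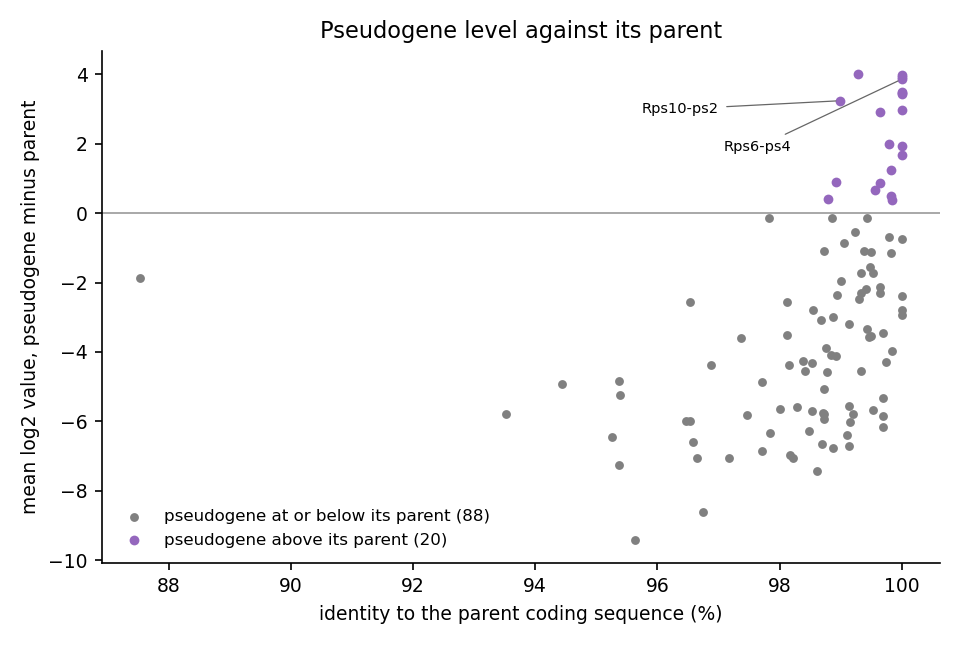
Each point is 1 of 108 tested pseudogenes, with its identity to the parent coding sequence in percent on the x axis and its mean log2 value over 6 libraries minus that of the parent on the y axis. The 20 points above 0 lie between 98.8% and 100% identity, and the 88 at or below 0 reach down to 87.5% (Rpl36a-ps3 against Rpl36a, the parent by symbol); values are not adjusted for length.

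The pseudogenes with the smallest p lay on both sides of 0. Rpl9-ps7 stood at 8.51, 8.37 and 8.43 in control and at 9.19, 8.79 and 8.92 with EFNA3; its groups did not overlap and the difference was 0.53 (SE 0.12, unadjusted p = 0.0015, adjusted p = 0.55 by limma). Its parent Rpl9 differed by 0.26 (SE 0.21) with overlap. Rpl31-ps11, read at 4.24, 4.42 and 3.49 in control and at 5.68, 4.83 and 6.02 with EFNA3, had the largest difference of any tested member, 1.46 (SE 0.38), where Rpl31 differed by 0.32 (SE 0.17).

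Rps26-ps1 was 1 of the 16 tested pseudogenes with a lower mean beside a parent with a higher one. It stood at 11.41, 11.20 and 11.32 in control and at 10.59, 11.12 and 10.90 with EFNA3, so every EFNA3 library was below every control, with a difference of -0.44 (SE 0.13, unadjusted p = 0.0070). Rps26 itself was read at 13.22, 13.15 and 12.84 in control and at 13.80, 13.17 and 13.47 with EFNA3. The gene took 76.9%, 78.7% and 73.4% of the summed linear signal of Rps26 and its copies in the controls and 89.2%, 79.7% and 84.5% with EFNA3. The other pseudogene whose EFNA3 values all lay below the controls was Rpl21-ps10, at a low level, with a difference of -0.38 (SE 0.25).

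Rpl17-ps9 (0.73, SE 0.24) and Rps15a-ps5 (0.67, SE 0.24) were also among the 6 pseudogenes with the smallest p. The 3 with the highest means were nearer 0: Rpl3-ps1 at 0.07 (SE 0.16), Rps7-ps3 at 0.16 (SE 0.11) and Rpl14-ps1 at 0.20 (SE 0.11). The 3 least abundant that were tested, Rpl7a-ps10, Rps12-ps24 and Rpl27-ps1, had means of 3.02, 3.14 and 3.18, within the range of the pseudogenes left out. Pseudogenes with a mean of at least 8 (40 genes) were higher by 0.21 on average (SD over genes 0.22) and those under 8 (81 genes) by 0.39 (SD 0.42). Among the 121 tested, 1 had every control library under the filter. In 55 pairs the pseudogene had the larger difference of the pair. Of the 19 pseudogenes with all EFNA3 libraries above all controls, 4 had a parent with the same order and 15 a parent that overlapped. The 19 include the pseudogene that passed the filter through the EFNA3 group alone, Rpl31-ps13, at 3.18, 2.59 and 3.08 in control and 4.67, 3.98 and 3.48 with EFNA3; it is also among the 22 with a higher mean at an unadjusted p under 0.05.

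Because parent and copy can exchange reads, each parent was also summed with its copies on the linear scale. Copies were genes of the table, including predicted genes with Gm symbols, whose transcript matched at least 80% of the parent's coding sequence at 95% identity or more; this sum was chosen after seeing the data. For 80 coding parents with introns there were 357 copies, of which 126 were members and 224 had Gm symbols, 351 had a single exon and 25 were at 100% identity. Rpl21, a protein of the large subunit, had the most copies with 29, and 6 parents had none. The gene carried a varying part of its family, with no adjustment for length: 38 parents held under 50% of the sum, 14 under 10% and 13 over 90%. In 31 families at least 1 copy had a higher mean than the parent.

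The share of a family read on the parent differed between libraries, and most in control replicate 3. Over the 74 families with copies the gene's mean share was 50.1%, 50.6% and 44.0% in control replicates 1, 2 and 3 and 49.9%, 47.5% and 52.0% in EFNA3 replicates 1, 2 and 3. Relative to the other 2 controls, parents in control replicate 3 were lower by a mean log2 value of -0.30 (SD over 80 genes 0.42), the summed copies were higher by 0.19 (SD over 74 families 0.23), and the family sums stood at -0.04 (SD 0.28). Parents lay more than 0.5 below the other controls there in 24 cases and family sums in 4. The 6 parents without a copy stood at -0.01 (SD 0.25) in that comparison, and the 24 that held 10 to 50% of their family at -0.56 (SD 0.43). The 14 that held under 10% stood at -0.14 (SD 0.40). The 42 that held 50% or more, which include those without a copy, stood at -0.21 (SD 0.36).

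Rps7, which helps to process ribosomal RNA, and Rpl19 serve as examples. Rps7 held 46.3% and 44.3% of its family in control replicates 1 and 2 and 20.4% in control replicate 3, while its copy Gm9493 was read at 10.82, 10.84 and 11.11. Summed with its copies, Rps7 stood at 11.76, 11.73 and 11.48 in control and at 12.23, 11.79 and 11.96 with EFNA3, a difference of 0.33 where the gene alone gave 0.77. Rps7-ps3, at 12.58, 12.59 and 12.75 in control, had no entry in GENCODE M21 and is not in this sum; joined by its symbol, it brought the family difference to 0.22. Rpl19 took 33.7%, 31.8% and 17.4% of its family in the controls, and its own difference of 0.55 (SE 0.26) compared with 0.31 for the family, where the groups no longer overlapped.

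Rpl3, read at 12.50, 12.40 and 11.94 in control, and Rpl3-ps1, at 12.70, 12.57 and 13.09, had their lowest and highest control value in the same library. Their family sum stood at 13.65, 13.55 and 13.67, and its difference was 0.18 where Rpl3 alone had 0.34 (SE 0.14). For Rpl35 the gene's share was 35.7%, 37.1% and 17.5% in control, and the difference was 0.59 (SE 0.36) for the gene and 0.34 for the family. Rpl21 gave 0.58 (SE 0.35) and 0.38. Without control replicate 3 the genes Rpl19, Rpl35 and Rpl21 differed by 0.24, 0.20 and 0.17. Rps21, with 97.8% of its family on the gene, differed by 0.64 (SE 0.25) as a gene and by 0.63 as a family; its lowest value was in control replicate 3 (10.48), without which the gene differed by 0.36.

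**Figure D4:**
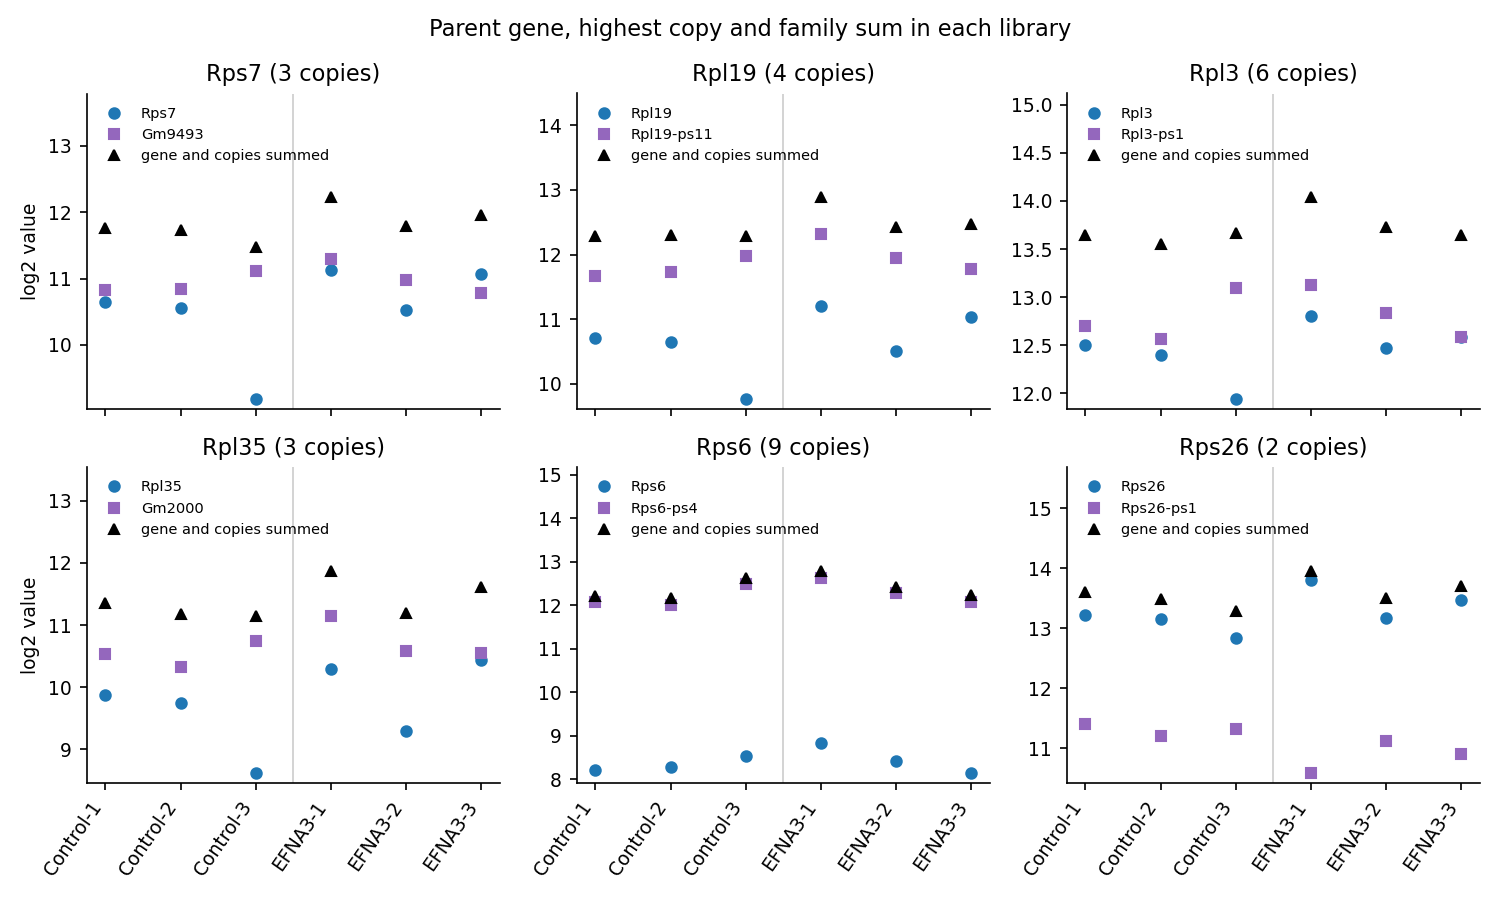
Markers give, for 6 parents in each library, the log2 value of the parent gene, of its copy with the highest mean, and of the gene and all copies summed on the linear scale. For Rps7, Rpl19, Rpl3 and Rpl35 the gene is lowest in control replicate 3 and the copy is highest there among the controls; for Rps26-ps1 every EFNA3 value lies below every control, while the values of Rps26 overlap.

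Over the 80 families the EFNA3 minus control difference was 0.29 on average (SD over families 0.13, range 0.05 to 0.63), against 0.35 for the genes alone (SD 0.17). All 80 family sums had a higher mean with EFNA3, as did all 80 genes. Family sums with all EFNA3 libraries above all controls numbered 33, and genes 16; the share of all tested single genes with this order was 8.53%, and that of other genes of at most 1500 nt 14.8%. The library means of family sums were -0.09, -0.17 and -0.17 in control and 0.45, -0.03 and 0.02 with EFNA3, against -0.05, -0.10, -0.38 and 0.49, -0.11, 0.14 for the same genes. The SD of the 3 control means was 0.04 for families and 0.18 for genes, and that of the EFNA3 means 0.26 and 0.30. EFNA3 replicate 1 remained the highest library by either measure. Joining 12 unmatched pseudogenes by symbol left the mean family difference at 0.29 and gave 34 families without overlap.

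**Figure D5:**
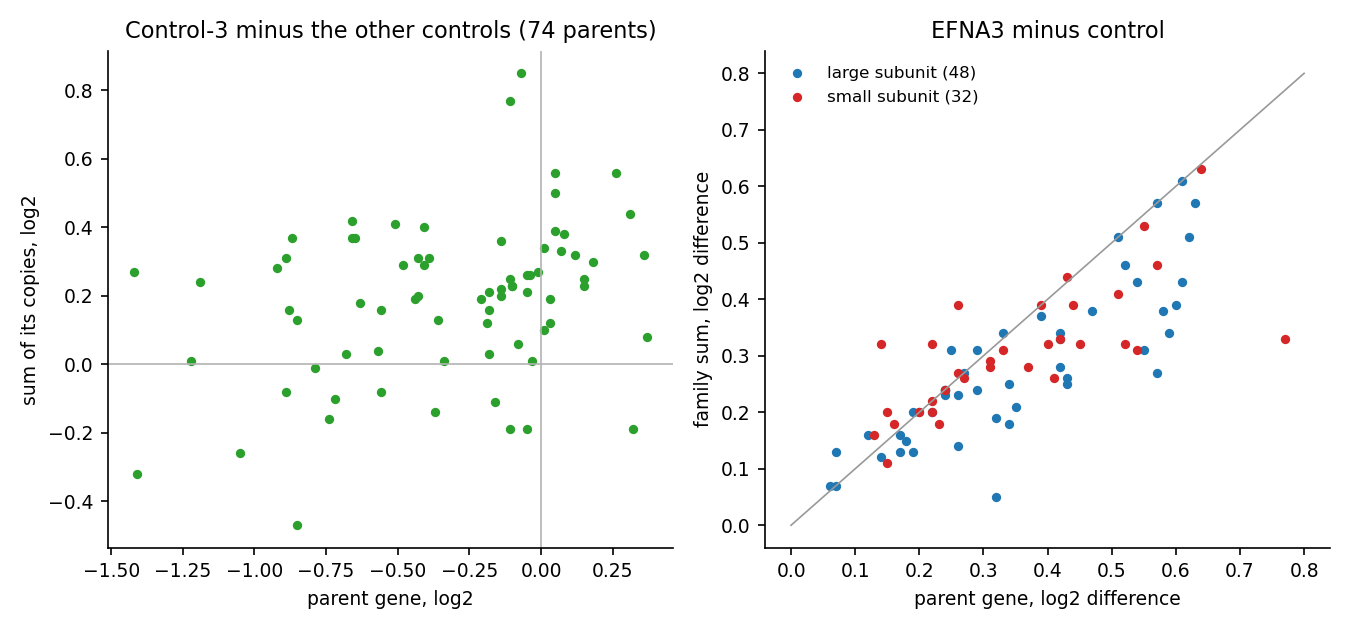
The left panel plots, for 74 parents, control replicate 3 minus the mean of the other controls (log2) for the gene on the x axis and for the sum of its copies on the y axis; the right panel plots the EFNA3 minus control log2 difference of 80 genes against that of their family sums, with the line of equality. Points on the left lie mostly left of 0 and above 0 (means -0.30 and 0.19), and points on the right lie above 0 on both axes.

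Transcription starts of subunit genes were examined for the TOP motif, the feature that mRNAs of subunit genes are known for. RefSeq promoter entries (GRCm38.p6, 300 bases) were found for 64 of the 88 subunit genes, 75 entries in all. A C followed by 4 bases that are each C or T stood exactly at the annotated start in 20.0% of these entries and in 2.51% of all 32851 entries, and anywhere within 10 bases of the start in 54.7% and 30.7%. The motif CGGAAG, the core bound by ETS factors, was found on either strand in 45 of the 75 entries and in 16.9% of all. Starts of 6 genes are shown with 15 bases on each side, 5′ to 3′, and the run of pyrimidines that begins at the start in capitals:
Rpl35: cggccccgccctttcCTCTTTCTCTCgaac
Rps6: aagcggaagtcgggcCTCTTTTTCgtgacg
Rplp2: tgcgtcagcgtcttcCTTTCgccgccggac
Rpl28: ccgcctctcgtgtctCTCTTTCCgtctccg
Rpl38: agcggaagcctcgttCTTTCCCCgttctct
Rps18: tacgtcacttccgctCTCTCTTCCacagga
The 15 genes with the motif at a start were higher with EFNA3 by a mean of 0.39 (SD over genes 0.20), the 49 other genes with an entry by 0.34 (SD 0.17) and the 24 without one by 0.30 (SD 0.14). A match describes these letters only.

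Other mRNAs of the translation machinery were read from fixed lists, and none passed the test. Of 22 translation factors and other genes known for TOP mRNAs, 21 had a higher mean with EFNA3, 8 had all EFNA3 libraries above all controls (36.4%, background 8.53%), and the median difference was 0.21. Their mean deviations were -0.09, -0.11 and -0.11 in the controls and 0.31, -0.02 and 0.02 with EFNA3, so EFNA3 replicate 1 was again the highest. Fau, which encodes the ribosomal protein of the small subunit fused to a ubiquitin-like protein, stood at 7.08, 7.22 and 7.07 in control and at 8.10, 7.43 and 7.64 with EFNA3, a difference of 0.60 (SE 0.18). Nap1l1, a histone chaperone, differed by 0.25 (SE 0.10) and the elongation factor Eef1g by 0.30 (SE 0.12). Rack1, a scaffold on the small subunit's head, differed by 0.15 (SE 0.10) with overlap.

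The lists of factors that build or regulate ribosomes had medians nearer 0. Initiation and elongation factors had a median of 0.10 (22 of 29 higher): Eif1, which guards start codon selection, differed by 0.29 (SE 0.12), and Eef2k, the kinase that inhibits elongation factor 2, by -0.16 (SE 0.07), with all EFNA3 libraries below the controls. Ribosome biogenesis genes had a median of 0.09 (31 of 40 higher), with Rrp9 of the U3 particle at 0.28 (SE 0.10) and the export adaptor Nmd3 at 0.23 (SE 0.09). RNA polymerase I and III genes had a median of 0.07 (14 of 24 higher), with the polymerase I factor Cd3eap at 0.18 (SE 0.08).

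Chaperones and importers of ribosomal proteins had a median of 0.10 (8 of 12 higher), and Bccip differed by 0.25 (SE 0.12). Genes of mTOR and MYC control were divided, 11 of 23 higher, with a median of -0.01. Their smallest p was that of Mycn, a MYC family transcription factor, at 2.02, 2.39 and 1.87 in control and 3.86, 3.72 and 3.60 with EFNA3. All its controls lay under the filter, which it passed through the EFNA3 group alone, so its difference of 1.63 (SE 0.42) is from a gene near the lower end of the table. List medians were not adjusted for length.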

How the data were processed

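Messenger RNA of 6 libraries, 3 Control and 3 EFNA3, was analysed. Trim Galore, Subread, featureCounts and the build mm39 are named in the submitters' processing notes; which versions, annotation, strand setting and log2 step the authors chose is not given in the sources used here. Values that the authors deposited were taken as log2 values from their range (-0.79 to 18.11); sorted columns differed by at most 0.00302, so the 6 libraries share 1 distribution. Depth is unknown.

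Genes with a log2 value of at least 3.32 (linear 10) in 3 or more libraries were fitted with limma 3.58.1 (R 4.3.3; trend, no block, two-sided), and p-values were adjusted by Benjamini-Hochberg over all 16394. The fit was tested on simulated data. A filter planned for linear values was carried to the log2 scale. Class means carry no test. Lengths came from GENCODE M21, where 19143 of 19739 symbols matched; copies were found with blastn 2.17.0 from 83 coding sequences. Named were the members with the smallest p, the highest and lowest means and differences nearest 0, the paralogs, tested pseudogenes, up to 4 genes per list, and Rps7, Rpl19, Rpl3, Rpl35, Rpl21, Rps21, the Gm copies and the starts shown, chosen after their values were seen. A few genes that this rule names are not reported here. Members and lists were chosen with earlier results of these data known. Other pseudocounts, filters, scalings, variance models, blocks, a length and GC correction and leaving out each library were tried.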

Additional observations from a re-analysis of the deposited data

How the results depend on the processing

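The class means of large subunit, small subunit and pseudogene members kept a positive sign under every alternative run. Leaving out 1 library gave 0.19 to 0.48, 0.17 to 0.45 and 0.19 to 0.41. Library weights gave 0.17, 0.17 and 0.20, and scaling to short transcripts 0.25, 0.24 and 0.24. The length and GC correction without EFNA3 replicate 1 gave 0.11 for the small subunit and 0.12 for pseudogenes. No gene of the table passed 0.05 under any setting except a replicate block by the numbers in the descriptions. This block pairs only 2 libraries of each group and leaves 1 residual degree of freedom. With it 71 of the 16394 tested genes passed, 53 higher and 18 lower, among them 24 of the 211 tested members. Control replicate 2 and EFNA3 replicate 2 have no partner in the block, so its differences rest on replicates 1 and 3 of each group. There Rps7 stood at 1.18, Rpl21 at 1.12, Rpl35 at 1.12, Rpl36al at 1.18, Rpl38 at 1.00, Rps21 at 0.99, Rpl22l1 at 0.94, Rpl39 at 0.92, Rpl19 at 0.89, Rps28 at 0.77 and Rpl31-ps11 at 1.99. Each of these genes had its lowest value in control replicate 3. Same-numbered libraries by title did not deviate together (correlations -0.11, 0.03 and -0.32). The 2 pairs of the block by descriptions are the same libraries as title pairs 1 and 3, with correlations of -0.11 and -0.32. A replicate block by titles gave 0 calls and left the class means at 0.34, 0.33 and 0.33. Large and small subunit genes at an unadjusted p under 0.05 numbered 4 and 3 without control replicate 3, and 33 and 23 without EFNA3 replicate 2, against 15 and 16. Over all genes that count was 635 higher and 469 lower with all libraries, 392 and 348 without control replicate 3, 935 and 866 without EFNA3 replicate 2, and 246 and 777 after scaling to short transcripts.

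Genes near 0 changed sign under some settings. After scaling to short transcripts Rpl10 stood at -0.022, Rpl4 at -0.028, Rplp0 at -0.019, Rpl3-ps1 at -0.024 and Rps3a2 at -0.071. With library weights Rpl10 stood at -0.003, Rpl3-ps1 at -0.00099, Rps13 at -0.044 and Rps3a2 at -0.023. The length and GC correction gave -0.049 for Rpl10, -0.0099 for Rpl3-ps1, -0.0069 for Rpl32l, -0.00041 for Rps13, -0.028 for Rps19bp1 and -0.10 for Rps3a2. Without EFNA3 replicate 1 as well, it gave -0.026 for Rpl10, -0.025 for Rpl24, -0.10 for Rpl3-ps1, -0.027 for Rplp0, -0.13 for Rps13, -0.029 for Rps19bp1, -0.15 for Rps3a2, -0.013 for Rps4l and -0.11 for Rps6. The block by descriptions gave -0.030 for Rpl3-ps1 and -0.052 for Rps3a2. Leaving out 1 library gave -0.072 to 0.22 for Rpl3-ps1, -0.0022 to 0.14 for Rplp0, -0.063 to 0.29 for Rps13, -0.096 to 0.19 for Rps3a2 and -0.057 to 0.29 for Rps6. For all of these the cause was not tested. Without counts, a limit from depth could not be set.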
